A study of Mus musculus with 2 samples.

Results

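B cells of the mouse lung tumour were described here from 349 cells, chosen by their own transcript counts among 7438 cells that the authors classed as immune in the CD45-positive library. A cell was taken when it held at least 5 UMI (unique molecular identifiers, each standing for 1 captured transcript) of Cd79a and Cd79b together, no UMI of Derl3 or Tnfrsf17, and at most 1 UMI of Cd3d, Cd3e and Cd3g together. The 349 cells made up 4.69% of the immune class (95% Clopper-Pearson interval 4.22 to 5.20%), in a library of 11432 cells and a series of 15389. The tissue was lung adenocarcinoma of C57BL/6 mice, whose microdissected tumours were dissociated and parted with CD45 beads into a CD45-positive and a CD45-negative fraction, each sequenced as 1 droplet 3' library. The cell names carry the word LucOS, which the sources used here do not explain, and the number of mice, the alleles that drive the tumours, their stage and any treatment are not given there either. The groups set beside the B cells came from the same immune class of the same library. They were 442 plasma cells (at least 2 UMI of Derl3 and Tnfrsf17), 2625 T cells (at least 3 UMI of the Cd3 genes, at most 1 of Cd79a and Cd79b) and 97 dendritic cells (at least 2 UMI over Flt3, Zbtb46, Xcr1, Clec9a and Cd209a). With 1 library there was no replicate and no test was made: all intervals are 95% and cover counting error only, and the comparisons describe this library.

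B cells sense antigen through a membrane immunoglobulin whose signal is passed on by the CD79A and CD79B chains and held back by inhibitory receptors such as CD22. They take up what the receptor binds and show its peptides on MHC class II molecules to CD4 T cells, a step in which H2-DM loads the peptides and H2-O restrains H2-DM. On activation some become plasma cells, which give up most of this programme, enlarge the secretory apparatus and release antibody. In tumours they can sit in lymphoid aggregates with T cells and dendritic cells. The immunoglobulin chain genes were not analysed here, so class and clone of these cells were not addressed.

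Promoter sequence is shown for 3 genes of the receptor complex and its partners, since Cd79a chose the cells and the other 2 held the only motif matches in the set. Of 16 genes searched (14 of the identity list with Cd79a and Cd79b) 10 had an entry in the RefSeq promoter table of GRCm38.p6. The 250 bases before the start of the table's entry were searched on both strands for CCCNNGGG, a core of the motif of EBF factors, and for ATGCAAAT, the octamer bound by POU2F factors; matches are in capitals, and no match of one overlapped the other. These starts are those of 1 RefSeq entry a gene and differ from the outermost starts in GENCODE. In the Cd79a window 116 bases and in the Cd22 window 102 bases lie in exons that GENCODE annotates and are not printed. The Cd22 and Vpreb3 windows both lie wholly within the annotated genes, the Vpreb3 window in no exon. Their printed bases are thus sequence inside the annotated gene and outside its exons.
Cd79a, chr7:24897247-24897380, plus strand: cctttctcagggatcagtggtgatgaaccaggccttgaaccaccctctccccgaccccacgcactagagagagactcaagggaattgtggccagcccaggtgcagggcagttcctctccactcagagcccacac
Cd22, chr7:30879029-30879176, minus strand: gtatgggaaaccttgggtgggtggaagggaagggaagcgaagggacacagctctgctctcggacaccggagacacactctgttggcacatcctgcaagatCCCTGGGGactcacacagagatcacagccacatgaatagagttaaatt
Vpreb3, chr10:75948050-75948299, plus strand: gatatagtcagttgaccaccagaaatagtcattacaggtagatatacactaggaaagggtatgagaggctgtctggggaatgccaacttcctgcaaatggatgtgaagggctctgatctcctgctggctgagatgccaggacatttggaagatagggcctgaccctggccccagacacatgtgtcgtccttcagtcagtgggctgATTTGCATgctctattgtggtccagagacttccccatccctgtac
The EBF letters were in 1 of the 10 promoters (Cd22), against 11.8% of all 32851 promoters of the table. The octamer was in 1 of the 10 (Vpreb3, on the opposite strand, starting 45 bases before the start of its RefSeq entry), against 1.60% of all promoters. A match describes the letters of this window and no binding. In the GENCODE annotation of GRCm38 Cd79a lies at chr7:24897381-24902197 on the plus strand, and Cd79b at chr11:106311341-106314762, Ms4a1 at chr19:11249675-11266241, Jchain at chr5:88519809-88527891 and Apoe at chr7:19696109-19699188 on the minus strand, all protein-coding.

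The library was shallow per cell. Its cells held 47477407 UMI together (median 3376). The B cells held 1208924 of these, at a median of 2966 UMI (2209 to 15536) and 1024 genes in a cell, close to the T cells' median of 2996 UMI, while plasma cells had 4012 and dendritic cells 3547. The 2 libraries shared 57 cell barcodes, and 3 of the B cells' barcodes also stood in the CD45-negative library. Transcripts of other cell types were present in every group, and whether they were free or came from barcodes with 2 cells was not tested. The AT2 pneumocyte list (10 genes, surfactant genes among them) summed to 2589 CPM (UMI scaled to a group total of 1000000) in B cells, 2742 in plasma cells, 2310 in T cells and 2515 in dendritic cells, with Sftpc in 96.8% of B cells. The T cell list (12 genes) summed to 584 CPM in B cells, 455 CPM in plasma cells, 2858 CPM in T cells and 299.7 CPM in dendritic cells. The neutrophil list (8 genes) summed to 1532 CPM in B cells, 1077 CPM in plasma cells, 1701 CPM in T cells and 846 CPM in dendritic cells, and the C1q macrophage and monocyte list (11 genes) to 2996, 2168, 2933 and 3527 CPM in the same 4 groups; no gene of these 3 lists was at 0 in B cells, and their part in the results below was not tested.

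The Cd79 limit cut through a continuous distribution. Among immune cells within the other limits, 312 had 1 Cd79 UMI, 134 had 2, 128 had 3, 91 had 4, 72 had 5 and 72 had 6, and 86 had 10 or more. B cells held a median of 7 UMI of the pair (5 to 37), of which Cd79a gave a median of 5 and Cd79b of 2. Cells just inside, at 5 UMI, had 281 CPM of Ms4a1 (217 to 358) and 583 CPM of Ebf1, and the 91 cells just outside, at 4 UMI, had 255 CPM of Ms4a1 (204 to 316) and 478 CPM of Ebf1. The 86 cells at 10 UMI or more had 546 CPM of Ms4a1 (469 to 632). The other limits also took cells away: of 1142 immune cells with at least 5 Cd79 UMI, 509 held Derl3 or Tnfrsf17 and a further 284 held more than 1 Cd3 UMI. Of the 349 kept, 235 had no Cd3 UMI and 114 had 1.

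**Figure D1:**
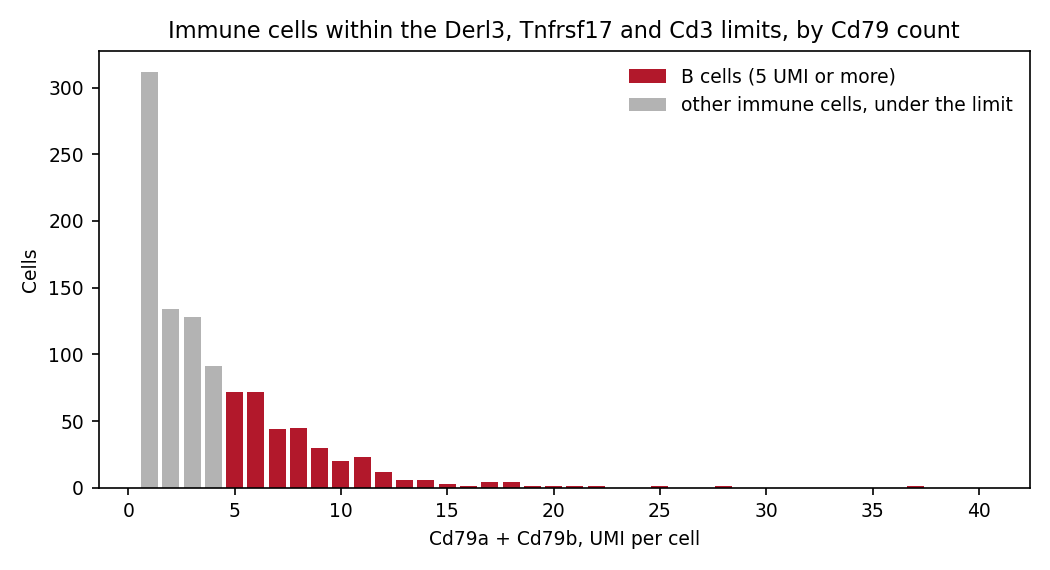
Number of immune cells of the CD45-positive library (vertical axis) by their UMI of Cd79a and Cd79b together (horizontal axis), for cells within the Derl3, Tnfrsf17 and Cd3 limits and with at least 1 Cd79 UMI. Red bars are the 349 B cells at 5 UMI or more and grey bars the cells below, and the counts pass the limit without a gap (91 cells at 4 UMI, 72 at 5).

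Most B cells also carried B cell genes that the rule did not use. Of 13 further B cell identity genes in the table, a B cell carried a median of 6 (0 to 12), a plasma cell 3, a T cell 1 and a dendritic cell 1. At least 3 of them were found in 325 B cells (93.1%), 54.8% of plasma cells, 15.9% of T cells and 18.6% of dendritic cells. The T cells and dendritic cells were chosen with at most 1 Cd79 UMI, which favours low values in them. Such a count cannot tell B cells from barcodes that also hold another cell. Clusters 0 and 2, described below and led by genes of other cell types, had medians of 6 and 5 identity genes. Ms4a1, the gene of CD20 and one of the defining markers, had a UMI in 227 B cells (65.0%, 59.8 to 70.0%) and in 3.73% of T cells at nearly equal median depth. After thinning each cell to 1000 UMI these shares were 34.7% of B cells and 1.33% of T cells. Outside the immune class, 6.49% of the cells of the same library that did not meet the UMI limits held Ms4a1. The share was 0.130% of such cells in the CD45-negative library, and the median depths were 3858 and 7703 UMI. Whether these Ms4a1 transcripts were free or came from barcodes with 2 cells was not tested. The members were not uniform, however. Of them 40 carried Jchain at 1% or more of their UMI, and clusters led by genes of myeloid, T or NK and plasma cells were found among them, and some values below are given also without them.

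The identity genes were higher in B cells than in T cells by large ratios, which describe the chosen groups and were not tested. Of the 13 compared, 12 were at least 2-fold higher and none lower, with a median log2 ratio of 3.69, where 2.96% of the 6896 compared genes were at least 2-fold higher and the median of all was -0.18. Ms4a1 stood at 422 CPM in B cells (386 to 460), against 14.2 CPM in T cells, a ratio of 29.7 (24.5 to 36.4), the highest of all compared genes. Fcmr, the receptor for the Fc part of IgM, stood at 165 CPM in B cells and 7.04 CPM in T cells, 23.4 times as high. Fcrla, an Fc receptor-like protein kept inside the cell, had a ratio of 19.4, and Ly6d, a surface protein of B-lineage cells, one of 15.7 with 1428 CPM in B cells. Ly6d was also the most widely seen of the named identity genes, in 90.8% of B cells and 12.8% of T cells. The exception was Ptprcap, a partner of CD45, which T cells share: 451 CPM in B cells and 554 CPM in T cells.

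Against plasma cells 9 of 12 compared identity genes were at least 2-fold higher in B cells and 1 lower, where 9.22% of the 2854 compared genes were higher and 11.3% lower. Ms4a1 was 17.8 times as high (13.1 to 24.7), with 422 CPM in B cells and 23.8 CPM in plasma cells. Cd72 and Ly86, an inhibitory receptor and the partner chain of CD180, were 10.9 and 10.7 times as high. Vpreb3, which acts in the assembly of the immature receptor, went the other way, with 87.7 CPM in B cells and 458 CPM in plasma cells (ratio 0.192, 0.155 to 0.235); its promoter is the one printed with the octamer. Within the B cells Vpreb3 was at 345 CPM in the 32 Jchain-led cells described below and at 78.6 CPM in the cluster led by B cell genes. Ly6d and Fcrla differed less than 2-fold, with 1428 and 122 CPM in B cells and 931 and 109 CPM in plasma cells. Against dendritic cells 10 of 11 compared identity genes were at least 2-fold higher, where 7.67% of the 1629 compared genes were higher and 9.88% lower. Ms4a1 had 510 UMI in B cells and 1 UMI in dendritic cells, a ratio of 157.7 with an interval of 28.2 to 6239.

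**Figure D2:**
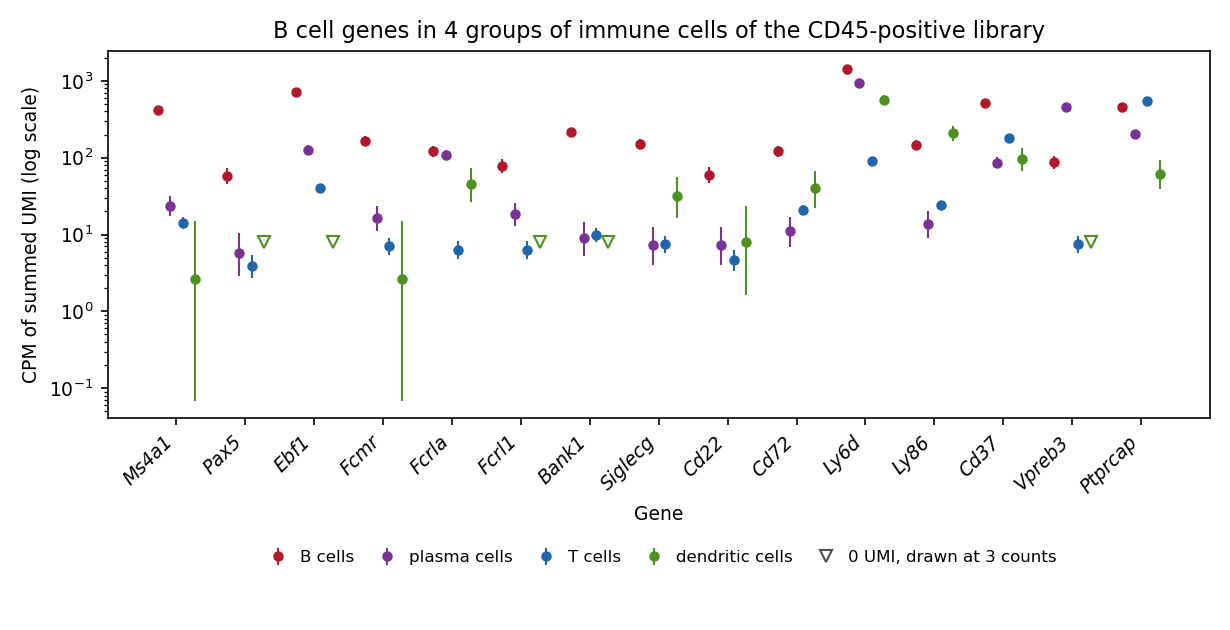
CPM of summed UMI (vertical axis, log scale) of 15 B cell genes in B cells, plasma cells, T cells and dendritic cells of the CD45-positive library, with exact Poisson intervals as bars; open triangles mark genes with 0 UMI, drawn at 3 counts. Ms4a1 stands at 422 CPM in B cells and at 23.8 CPM or less in the other groups, whereas Vpreb3 is highest in plasma cells and Ptprcap in T cells.

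Genes of the receptor's signalling path followed the same order. Of 18 compared co-receptor and kinase genes 12 were at least 2-fold higher in B cells than in T cells and none lower. Of all genes compared between the 2 groups 2.96% were higher and 8.29% lower. Bank1, a scaffold that joins the receptor to calcium release, stood at 215 CPM in B cells and 10 CPM in T cells (ratio 21.5), and at 8.97 CPM in plasma cells, which made it the highest ratio over plasma cells (24.0, 14.7 to 41.8). Blnk, the adaptor between SYK and its targets, was 14.9 times as high in B cells as in T cells, but stood at 100.1 CPM in B cells and 116 CPM in plasma cells. Syk, the kinase that binds phosphorylated CD79, was 4.13 times and Btk 3.71 times as high in B cells as in T cells. Cr2, a complement receptor, was sparse, with 33 UMI (27.3 CPM, in 8.60% of cells) in B cells and 17 UMI (1.87 CPM) in T cells. Malt1 and Vav1, which T and B cells both use, did not reach 2-fold: Vav1 stood at 42.2 CPM in B cells and 40.4 CPM in T cells.

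Of 12 compared inhibitory genes 6 were at least 2-fold higher in B cells than in T cells and 2 lower, beside 2.96% and 8.29% of all compared genes. Siglecg, a sialic acid receptor that restrains B cells, stood at 153 CPM in B cells, against 7.48 CPM in T cells and 7.39 CPM in plasma cells, ratios of 20.5 and 20.7. Cd22, the related inhibitory lectin, stood at 59.6 CPM in B cells and 4.62 CPM in T cells, a ratio of 12.9 (8.70 to 19.4). The 2 lower genes were Cd5 and Dok2, at 8.27 and 11.6 CPM in B cells, against 64.4 and 56.0 CPM in T cells. Fcgr2b, the inhibitory receptor for IgG, was present in all groups, with 72.8 CPM in B cells, 59.1 CPM in plasma cells, 36.5 CPM in T cells and 120.4 CPM in dendritic cells.

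Transcription factors of the B lineage were high. Ebf1, which sets up the B cell programme, stood at 713 CPM in B cells (666 to 762), against 128 CPM in plasma cells, 39.9 CPM in T cells and 0 UMI in dendritic cells. It had a UMI in 81.4% of B cells and in 7.81% of T cells, and was at least 88.8 times as high as in dendritic cells when those were set to 3 counts. Pax5, which keeps B cell identity, was far sparser, with 70 UMI (57.9 CPM, in 17.8% of B cells) and 3.85 CPM in T cells, a ratio of 15.1. In all 12 of 19 compared factors were at least 2-fold higher in B cells than in T cells, beside 2.96% of all compared genes. Among them were Spib (15.4), Mef2c (13.9), Pou2af1 (12.8), Bcl11a (10.8) and Irf8 (2.77). Over plasma cells 5 of 14 were higher and 2 lower, beside 9.22% and 11.3% of all compared genes. The higher ones included Bcl11a (120.8 CPM in B cells, 8.97 CPM in plasma cells) and Irf8 (285 CPM in B cells, 70.2 CPM in plasma cells). The lower ones were Pou2af1, the octamer co-activator, with 164 CPM in B cells and 409 CPM in plasma cells, and Irf4, with 43.0 CPM in B cells and 111 CPM in plasma cells. Mef2c differed little between the pair, with 405 CPM in B cells and 330.5 CPM in plasma cells. Against dendritic cells Irf8 and Spi1, which both lineages use, were lower in B cells, with Irf8 at 285 CPM in B cells and 591 CPM in dendritic cells (ratio 0.481). For Irf8 that ratio was 0.530 without the members rich in Jchain and 0.780 in the cluster led by B cell genes, both short of 2-fold.

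MHC class II genes lay between those of dendritic cells and those of the other groups for most members. Cd74, the invariant chain, stood at 12096 CPM in B cells, 6014 CPM in plasma cells, 2774 CPM in T cells and 20005 CPM in dendritic cells, and had a UMI in all 349 B cells. H2-Aa, a class II chain, stood at 3362 CPM in B cells, 524 CPM in plasma cells, 947 CPM in T cells and 7214 CPM in dendritic cells. Of 11 compared antigen presentation genes 9 were at least 2-fold higher in B cells than in T cells, beside 2.96% of all compared genes. Over plasma cells 9 of 10 were higher, beside 9.22% of all. Against dendritic cells 3 of 10 were higher and 3 lower, beside 7.67% and 9.88% of all. The lower ones were H2-Aa (ratio 0.466), H2-Ab1 (0.416) and H2-DMb1 (0.1803, 0.146 to 0.222), while H2-Eb1 (0.511), H2-DMa (0.504), Ctss (0.590) and Cd74 (0.605) lay just above the limit. Without the members rich in Jchain, described below, H2-Aa had a ratio of 0.521 and 2 genes were lower, where 10.5% of the compared genes were. The higher ones were H2-Oa and H2-Ob, the chains of the inhibitor H2-O, and H2-DMb2.

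H2-Ob stood at 260 CPM in B cells (232 to 290), 33.3 CPM in plasma cells, 17.8 CPM in T cells and 61.5 CPM in dendritic cells. H2-Oa stood at 242 CPM in B cells, 17.95 CPM in plasma cells, 27.2 CPM in T cells and 72.3 CPM in dendritic cells. The 2 ratios over dendritic cells were 4.22 (2.76 to 6.76) for H2-Ob and 3.34 (2.25 to 5.16) for H2-Oa, and in the cluster led by B cell genes alone they were 6.76 and 5.72. The 2 beta chains of H2-DM stood in opposite order: H2-DMb2 stood at 481 CPM in B cells and 174 CPM in dendritic cells, and H2-DMb1 at 122 CPM in B cells and 674 CPM in dendritic cells. H2-DMb1 and H2-DMb2 are closely similar neighbouring genes, so reads that match both could be split between them; the sources used here do not say how such reads were counted. Ciita, the activator of class II genes, had 47 UMI (38.9 CPM) in B cells and 26 UMI (69.6 CPM) in dendritic cells.

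**Figure D3:**
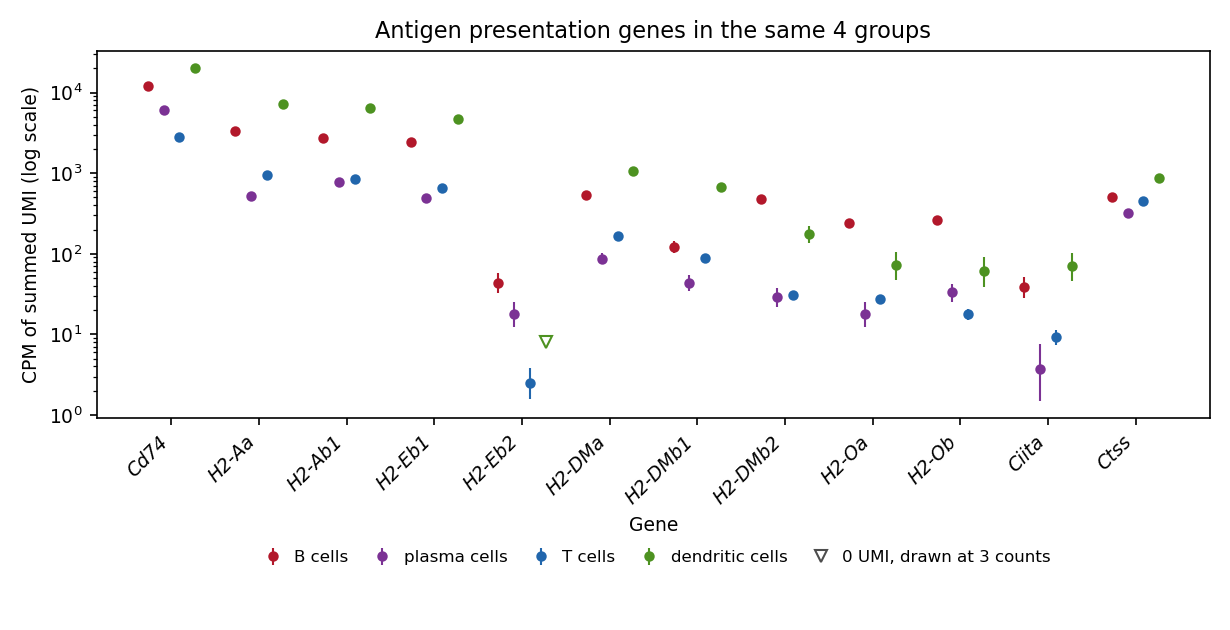
CPM of summed UMI (vertical axis, log scale) of 12 antigen presentation genes in B cells, plasma cells, T cells and dendritic cells, with exact Poisson intervals; the open triangle marks 0 UMI, drawn at 3 counts. Dendritic cells lie above B cells for Cd74, H2-Aa and H2-DMb1, and B cells above dendritic cells for H2-DMb2, H2-Oa and H2-Ob.

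Plasma cell genes were lower in B cells than in plasma cells. The rules favour such a difference, since they part the 2 groups by Derl3 and Tnfrsf17, and it was not tested. Of 19 compared genes of the plasma cell list 18 were at least 2-fold lower in B cells, beside 11.3% of all compared genes. Their median log2 ratio was -2.73 beside 0.08 for all compared genes. Fkbp11, a folding factor of the secretory path, had the lowest ratio of all, with 14.1 CPM in B cells and 309 CPM in plasma cells (0.0455, 0.0263 to 0.0734). Without the members rich in Jchain its ratio was 0.00919. The other lowest ratios were also mostly of this apparatus: Creld2 (0.0843), Hsp90b1 (0.112), Sdf2l1 (0.112), Edem2 (0.119), Txndc5 (0.125), Pdia4 (0.130) and Manf (0.136). Without those members the ratios were 0.0384 for Creld2, 0.0754 for Hsp90b1, 0.0702 for Sdf2l1, 0.0359 for Edem2, 0.0253 for Txndc5, 0.0854 for Pdia4 and 0.0791 for Manf. Ccr10, a chemokine receptor of antibody-secreting cells at mucosal surfaces, stood at 13.2 CPM in B cells and 168 CPM in plasma cells, and Sdc1, the gene of CD138, at 21.5 CPM in B cells and 183 CPM in plasma cells. The ratio of Ccr10 was 0.0788 with all members and 0.0226 without those rich in Jchain, and that of Sdc1 0.118 and 0.0363. Mzb1, a chaperone of immunoglobulin assembly, was widely seen in B cells. It stood at 923 CPM in B cells (in 78.2% of cells), 5581 CPM in plasma cells, 64.3 CPM in T cells (in 14.4% of cells) and 53.5 CPM in dendritic cells, and at 758 CPM in the cluster led by B cell genes, in 87.5% of its cells.

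Jchain, the joining chain of polymeric IgM and IgA, was the third most abundant gene of the B cells, at 15747 CPM, yet a few cells carried it. The 40 members at 1% or more of their UMI held 96.1% of the B cells' Jchain UMI. Their Jchain share had a median of 10.2% (1.57 to 34.1%), beside 10.8% in plasma cells and 0.0589% over all B cells. Only 4 B cells lay between 0.5 and 2%, so the limit of 1% fell in a sparse range. In T cells 34 of 2625 (1.30%) reached 1%, and in dendritic cells 0 of 97. With all members Jchain was 15.8 times as high in B cells as in T cells and 29.7 times as high as in dendritic cells. Without the 40 members the ratios were 0.705 over T cells and 1.33 over dendritic cells, and the plasma cell genes at least 2-fold higher than in T cells numbered 2 in place of 9 of 17. Of all compared genes 3.03% were then at least 2-fold higher and 9.22% lower than in T cells. The same change left 12 of 13 identity genes and 9 of 11 antigen presentation genes at least 2-fold higher in B cells than in T cells.

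**Figure D4:**
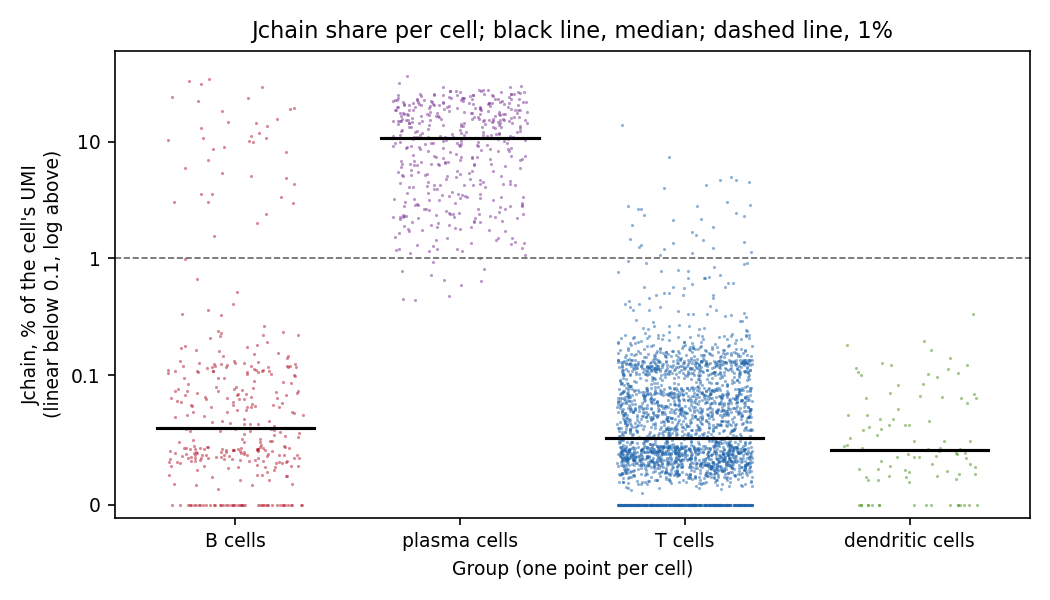
Share of a cell's UMI that are Jchain, in percent (vertical axis, linear below 0.1 and log above), for each B cell, plasma cell, T cell and dendritic cell; black lines are medians and the dashed line marks 1%. B cells fall into a large group near their median of 0.0589% and 40 cells above the line that reach the plasma cells' range.

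Genes of position and survival differed from gene to gene. Ccr7, the receptor that guides lymphocytes to T cell zones, stood at 126 CPM in B cells, 11.1 CPM in plasma cells, 65.3 CPM in T cells and 21.4 CPM in dendritic cells, and was 11.3 times as high as in plasma cells (7.16 to 18.9). Cxcr5, the receptor for the follicle, had 52 UMI (43.0 CPM, in 13.5% of B cells), against 1 UMI in plasma cells, 46 UMI (5.06 CPM) in T cells and 0 UMI in dendritic cells. Of 15 compared homing genes none was at least 2-fold higher in B cells than in T cells and 3 were lower (Itgb7, Itgb1, S1pr4), where 8.29% of all compared genes were, with Itgb7 at 52.1 CPM in B cells and 152 CPM in T cells. In the cluster led by B cell genes 3 were higher and 4 lower, Ccr7 among the higher with a ratio of 2.68, where 4.15% of the same 6896 compared genes were higher and 20.5% lower. Cxcr5 itself had 98 UMI in the pair and so fell short of the minimum of 100 for a compared gene. Tnfrsf13c, the receptor through which BAFF keeps B cells alive, stood at 90.2 CPM in B cells, 42.2 CPM in plasma cells and 5.83 CPM in T cells, with 1 UMI in dendritic cells. Its relative Tnfrsf13b stood at 74.5 CPM in B cells and 134 CPM in plasma cells. Of 13 compared genes of the BAFF and survival list 2 were at least 2-fold higher than in T cells and none lower, beside 2.96% and 8.29% of all. Over plasma cells 3 of 8 were higher and none lower, beside 9.22% and 11.3% of all. Over dendritic cells 1 of 7 was higher and 2 lower, beside 7.67% and 9.88% of all. Ltb, which builds lymphoid tissue, was high at 649 CPM in B cells, against 101 CPM in plasma cells, 549 CPM in T cells and 77.6 CPM in dendritic cells.

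Markers of B cell subsets were seen at different depths. Fcer2a, the gene of CD23 and a marker of follicular B cells in mice, had 64 UMI in B cells (52.9 CPM, in 13.8% of cells, 10.3 to 17.8%), against 2.09 CPM in T cells (in 0.724% of cells) and 3.17 CPM in plasma cells. In the cluster led by B cell genes it was at 91.3 CPM, in 19.5% of cells. Fcer2a fell short of the minimum of 100 UMI in the pair, so it was not a compared gene over T or plasma cells. Of 7 compared genes of the follicular list 1 was at least 2-fold higher in B cells than in T cells, beside 2.96% of all compared genes. Over plasma cells 5 of 7 were higher, beside 9.22% of all. Over dendritic cells 1 of 5 was higher, beside 7.67% of all. Of the marginal zone list Mzb1 alone stood at least 2-fold above T cells, among 5 compared, beside 2.96% of all compared genes. S1pr3 had 1 UMI and Cd1d1 8 UMI in B cells. Cd5, a marker of B-1a cells that T cells also carry, was found in 2.87% of B cells and 18.1% of T cells. Of the germinal centre list Bcl6 had 2 UMI and Rgs13 0 UMI in B cells.

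Apoe, the lipid carrier apolipoprotein E, was among the genes most set apart from plasma and dendritic cells. It stood at 1154 CPM in B cells, 102 CPM in plasma cells, 212 CPM in T cells and 96.3 CPM in dendritic cells, ratios of 11.3 (9.74 to 13.2), 5.44 (5.08 to 5.83) and 11.98 (8.61 to 17.2). It had a UMI in 63.6% of B cells (42.7% after thinning) and in 18.2% of T cells (7.54% after thinning). At least 5 Apoe UMI were found in 95 B cells (27.2%, 22.6 to 32.2%), against 1.81% of plasma cells, 1.98% of T cells and 1.03% of dendritic cells. Macrophages also express Apoe, which is on the C1q macrophage and monocyte list, so it was set beside C1qa, C1qb and C1qc. The 317 B cells without a UMI of these 3 genes (90.8% of B cells) held 83.1% of the B cells' Apoe UMI, at 1069 CPM. The T cells without one (92.3% of T cells) held 35.9% of the T cells' Apoe UMI, at 84.0 CPM. The source of the Apoe transcripts was not tested. In the cluster led by B cell genes Apoe stood at 1562 CPM and C1qa at 7.61 CPM (3 UMI). Plac8, a small cysteine-rich protein of leukocytes, was likewise high, with 1212 CPM in B cells, 591 CPM in plasma cells, 299 CPM in T cells and 1761 CPM in dendritic cells. Both genes were on the list of B-1 and memory genes, of which 6 of 17 compared were at least 2-fold higher in B cells than in T cells and 5 lower, where 2.96% and 8.29% of all compared genes were. The higher ones were Apoe, Plac8, Zbtb32, Bhlhe41, Zbtb20 and Cd80, and the lower ones Cd5, Spn, Ahnak, Ctla4 and Nt5e. In the cluster led by B cell genes 5 were higher and 10 lower, beside 4.15% and 20.5% of all compared genes.

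Costimulatory and activation genes were moderate. Cd86, a ligand of CD28, stood at 83.6 CPM in B cells, 6.34 CPM in plasma cells, 22.3 CPM in T cells and 149.8 CPM in dendritic cells. Cd83, which stabilises class II molecules at the surface, stood at 193 CPM in B cells, 26.9 CPM in plasma cells, 45.3 CPM in T cells and 222 CPM in dendritic cells. Of 14 compared early activation genes 2 were at least 2-fold higher in B cells than in T cells (Cd83 and Myc) and 2 lower (Nr4a2 and Batf). Of 14 dissociation stress genes 1 was lower than in T cells (Hspa1b) and none higher, with Fos at 332 CPM in B cells and 335 CPM in T cells. Of 13 compared interferon-stimulated genes 1 was lower than in T cells (Rsad2) and none higher. Beside these 3 lists, 2.96% of all genes compared with T cells were at least 2-fold higher and 8.29% lower. In the cluster led by B cell genes the lower ones numbered 6 for early activation, 4 for dissociation stress, with Fos at a ratio of 0.583, and 5 for the interferon list (13 genes), where 20.5% of all compared genes were lower. Il10, the cytokine of regulatory B cells, had 8 UMI in B cells (6.62 CPM) and 6.82 CPM in T cells, a ratio of 0.971 (0.401 to 2.03), so a difference was not detectable at this depth. Il12a, a subunit of IL-12 and IL-35, had 12 UMI in B cells and 3 UMI in the far larger T cell group, a ratio of 30.1 (8.12 to 166). Il10 and Il12a both fell short of the minimum of 100 UMI in the pair for a compared gene. Their ratios are thus not ranked with those of the compared genes. The number of B cells that held the 12 Il12a UMI is not reported here.

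The series bears on IL-33, an alarm cytokine sensed through the receptor chain ST2. Il1rl1, the gene of ST2, had 5 UMI in B cells (4.14 CPM, in 1.15% of cells), against 16.6 CPM in T cells (in 4.69% of cells), a ratio of 0.249 (0.0797 to 0.594). Il33 had 5 UMI in B cells and 18 UMI in T cells, 4.14 and 1.98 CPM. Of 8 compared genes of the IL-33 axis none was at least 2-fold higher in B cells than in T cells and 4 were lower (Il1rl1, Map3k7, Sigirr and Areg), where 2.96% of all compared genes were higher and 8.29% lower. Without the members rich in Jchain 2 were lower, beside 9.22% of all compared genes, since Map3k7 and Sigirr then had ratios of 0.539 and 0.504.

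The 12 lowest ratios over T cells rested on few UMI in B cells. Cd8a, the CD8 chain of T cells, stood at 15.7 CPM in B cells and 236 CPM in T cells (ratio 0.0665), Penk, an enkephalin precursor, at 3.31 CPM in B cells and 90.3 CPM in T cells, and Sh2d1a, the adaptor SAP, at 6.62 CPM in B cells and 99.7 CPM in T cells. Rgs16 had 3 UMI, and Nrn1, Gzmk, Tnfsf11, Chst2, Nsg2, Gzmc, Pdzk1ip1 and Gal had 1 UMI each in B cells. For Gzmk that gave a ratio of 0.0299 with an interval of 0.000753 to 0.168. In all 8.29% of compared genes were at least 2-fold lower than in T cells. The lowest over dendritic cells was Ccl17, a chemokine for CCR4-bearing T cells, at 43.0 CPM in B cells and 2828 CPM in dendritic cells (ratio 0.0152). Cst3 followed at 886 CPM in B cells and 10639 CPM in dendritic cells, with Cxcl9, Ccr2, Ms4a6c, Ckb, Cd7, Ifitm3, Alox5ap, Cxcl16, Naaa and Aif1 at ratios between 0.0515 and 0.132. Among the highest over dendritic cells outside the lists were Gimap7 and Gimap3, GTPases of lymphocyte survival, at 117 and 116 CPM in B cells with 1 and 2 UMI in dendritic cells. Gm43603 and Gm43291, for which the tables used here give no annotation, stood at 187 and 168 CPM in B cells and at 9.68 and 10.7 CPM in T cells.

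The scale moved the balance of higher and lower genes. Over T cells 204 genes were at least 2-fold higher and 572 lower, and 285 and 433 with the median ratio set to 1, a shift of 0.18 on the log2 scale. Over plasma cells 263 were higher and 322 lower, and 416 and 248 when mitochondrial and ribosomal protein genes were left out of the total, a shift of 0.23. Over dendritic cells 125 were higher and 161 lower, 182 and 112 without those genes in the total, and 161 and 128 with the median ratio set to 1.

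Clustering of the 349 B cells alone gave 4 clusters, which describe the cells they were made from and were not tested. Cluster 1 was the largest, with 128 cells (36.7%, 31.6 to 42.0%), and was led by Serpinb1a, Gimap7, H2-Oa, Tnfrsf13c, Irf8, H2-Ob, Cd72 and Fcrla. Its 13 identity genes summed to 5443 CPM, Ms4a1 stood in 74.2% of its cells and Ebf1 in 91.4%, and its median UMI was 2772.5. Its lists of other cells summed to 246 CPM for neutrophils, 152 CPM for alveolar macrophages and 50.7 CPM for NK cells, with Gzma, Ncr1 and Eomes at 0. Its AT2 list summed to 2142 CPM. Its C1q macrophage and monocyte list summed to 2028 CPM, beside 5664, 1752 and 2097 CPM in clusters 0, 2 and 3. Apoe, a member of that C1q list, stood at 1562 CPM in cluster 1. The plasmacytoid dendritic cell list summed to 1176 CPM in it, beside 966, 929.6 and 1767 CPM in clusters 0, 2 and 3, and the erythroid list to 271 CPM, beside 249, 235 and 313 CPM. It is the set called the cluster led by B cell genes above, and was picked for the highest sum of the identity genes, Ms4a1 among them. With its cells alone as B cells, Ms4a1 had a ratio of 41.5 over T cells. Of the 13 identity genes 12 were at least 2-fold higher, beside 4.15% of all compared genes. These identity values are favoured by the way the cluster was picked.

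Cluster 2, with 109 cells (31.2%), was led by Gzma, Nkg7, Il7r, Cd28, Tppp3, Lat and Ccl5, most of them known from T and NK cells. Gzma, which ranked first, had a UMI in 7.34% of its cells. Its T cell list summed to 1069 CPM, beside 423 CPM in cluster 1, and 41.3% of its cells had the 1 Cd3 UMI that the rule allows, beside 22.7% in cluster 1. Its identity genes summed to 3884 CPM, with Ms4a1 at 447 CPM (in 67.0% of cells), beside 588 CPM in cluster 1. It also held S100a6 at 1569 CPM, beside 228 CPM in cluster 1. At resolution 1.0 a cluster of 44 cells led by Tppp3, S100a6 and Crip1 formed, 34 of them from cluster 2 and 10 from cluster 1, apart from 61 cells led by Gzma, Nkg7 and Ccl5. A further 32 cells were led by mitochondrial genes alone, mt-Cytb first at 13374 CPM, beside 4130 CPM in the other members, with 20 cells from cluster 2 and 12 from cluster 1.

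Cluster 0, with 80 cells (22.9%), was led by 2810417H13Rik, Plet1, Osm, Fcgr3, Ccl3, C1qb and C1qa. C1qa and C1qb had a UMI in 10% and 11.3% of its cells, and 6 of the 80 held at least 3 C1q UMI. At resolution 1.0 its cells fell into 17 led by Chil3, Ear2 and Lyz2, 32 led by S100a9, S100a8 and G0s2, and 31 led by 2810417H13Rik and C1q genes. Its neutrophil list summed to 4021 CPM, its C1q macrophage and monocyte list to 5664 CPM and its alveolar macrophage list to 1932 CPM, and its identity genes to 2979 CPM, with Ms4a1 in 71.3% of cells. Of the B cells counted as cycling, with at least 3 UMI over 8 proliferation genes, 19 of 21 lay in it. Cycling cells made up 6.02% of B cells (3.76 to 9.05%), 7.47% of plasma cells, 7.24% of T cells and 7.22% of dendritic cells, but 1 of 128 cells (0.781%) in cluster 1. Of the 14 compared cell cycle genes 1 was at least 2-fold lower in all B cells than in T cells, and 12 in cluster 1, beside 8.29% and 20.5% of all compared genes. No doublets were removed, and whether barcodes with 2 cells account for the genes that lead clusters 0 and 2 was not tested.

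Cluster 3 was plasma cell-like. It held 32 cells (9.17%, 6.36 to 12.7%) led by Prg2, Jchain, Slpi, Txndc5, Edem1 and Xbp1, all 32 among the 40 with 1% or more Jchain. Jchain stood at 136896 CPM in it, against 1839 CPM in the other members, and Xbp1, the factor that enlarges the secretory apparatus, at 1623 CPM, against 84.8 CPM. Ms4a1 had a UMI in 2 of its 32 cells, and Tnfrsf13c and Cxcr5 had none. They held no UMI of Derl3 or Tnfrsf17, as the rule requires, but their leading genes go against the label.

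**Figure D5:**
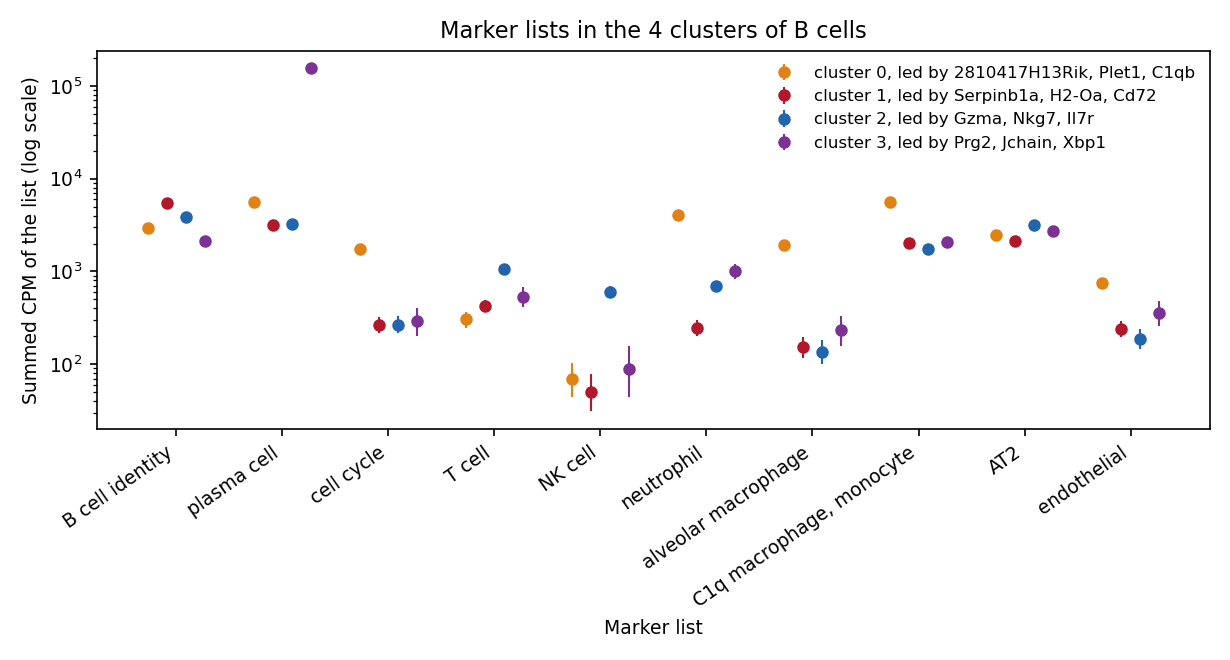
Summed CPM of 10 marker lists (vertical axis, log scale) in the 4 clusters of the 349 B cells, with exact Poisson intervals. Cluster 1 is highest for the B cell identity list (5443 CPM), cluster 3 for the plasma cell list, cluster 2 for the T cell and NK cell lists and cluster 0 for the cell cycle, neutrophil and macrophage lists, while the AT2 list spans 2142 to 3187 CPM.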

How the data were processed

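The authors deposited 1 table of raw counts (UMI) with 17790 genes in rows and the cells of both libraries in columns, and a class for each cell. Per the series design text, libraries were made on the 10X 3' platform (V2) with 6000 cells loaded per channel, read at 98 bp, and processed with Cell Ranger 1.1.0 on mm10. The CD45-positive library holds more cells than were loaded; the sources used here do not say why, nor how classes were made.

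The deposited counts were summed over the cells of each group and divided by the group's total (CPM). Levels had exact Poisson, shares Clopper-Pearson and ratios conditional binomial intervals, at 95% and for counting error only. A group at 0 was set to 3 counts for a bound. Plasma cells also had at most 1 Cd3 UMI, T cells no Derl3 or Tnfrsf17, and dendritic cells at most 1 Cd79 and 1 Cd3 UMI and no Derl3 or Tnfrsf17. Compared genes had at least 100 UMI in both groups together, without the 7 genes of the rule (over dendritic cells also their 5 markers). A gene was counted as higher or lower from 2-fold. No p-value was made: 1 library, cells not replicates. Cells were also thinned to 1000 UMI, which dropped none. No cell was removed and no doublet caller was used. Clusters came from scanpy 1.11.5 and igraph 0.11.9 (Leiden, 2000 variable genes, 20 components, 15 neighbours, resolution 0.5).

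Members, gene lists and comparisons were chosen with earlier results of these data known. Genes named were the 12 highest and 12 lowest ratios per comparison, members of the lists by level, 20 genes always named, and the 10 leading genes per cluster with at least 50 UMI. The genes at resolution 1.0 and Apoe beside the C1q genes were chosen after their values were seen, as was the limit of 1% Jchain. Ratio counting was tested on simulated counts with 200 changed genes per comparison. Promoters came from the RefSeq table of GRCm38.p6. Intervals used scipy 1.17.1, tables pandas 2.3.3 under Python 3.11.15, and plots matplotlib 3.10.9. The planned search of the CD79 proteins was not run. Some planned genes are not reported here.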

Additional observations from a re-analysis of the deposited data

Results flagged for a closer look

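B cell transcripts were also counted outside the immune class, in cells that no comparison used. In the CD45-positive library 81 of 3994 cells of other classes (2.03%, 1.61 to 2.51%) met the same UMI limits, 50 of them classed as endothelial and 25 as AT2. Their 13 identity genes summed to 1878 CPM and Ms4a1 had a UMI in 58.0% of them, beside 399 CPM and 6.49% in the cells of those classes that did not meet the limits. Their median UMI was 4649, beside 3858. In the CD45-negative library 6 of 3849 cells of other classes (0.156%, 0.0572 to 0.339%) met the limits. The 3 counts set in place of 0 would be 0.0779%, which lies inside that interval. The 6 cells were 4 classed as AT2 and 2 as endothelial, with a median of 17238 UMI, beside 7703 UMI in the rest. None of the 108 immune cells of that library met them.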

How the results depend on the processing

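No paired analysis was possible because each fraction was 1 library and no test was made. The sets without Jchain-rich members and of the cluster led by B cell genes alone were chosen after seeing the data. Membership was set by the limits: 568 cells at a Cd79 limit of 3 UMI, 86 at 10, 227 with Ms4a1 required, 128 in the cluster led by B cell genes. Counts of genes at least 2-fold higher or lower moved by over 1.5 times as follows. Over T cells, the lower genes numbered 1203 at a Cd79 limit of 10, 1340 for the cluster led by B cell genes and 1069 after thinning, and the higher ones 321 after thinning. Over plasma cells the higher genes numbered 400 and 134 at Cd79 limits of 3 and 10, and 416 with mitochondrial and ribosomal protein genes out of the total. Over dendritic cells the higher genes numbered 218 and 33 at those limits, 78 at a Cd3 limit of 0, 49 for the cluster led by B cell genes and 195 after thinning. Removing B cells with 10 or more UMI of other types' lists left 13 cells, with 804 higher over T cells and 8 over dendritic cells. With a gene minimum of 20 UMI the higher and lower genes numbered 500 and 1325 over T cells, 926 and 715 over plasma cells and 744 and 706 over dendritic cells; at 500 UMI they numbered 46 and 159, 43 and 120, and 18 and 36, by the construction of the minimum. Resolution 1.0 gave 8 clusters. Of 1164 ratios of named genes recomputed, 857 stayed within the counting interval, 304 left it and 3 were counted as turned. The 3 were all of Jchain over T cells: 0.705 without the Jchain-rich members, 0.923 in the cluster led by B cell genes and 0.583 among the 13 cells. A turn was counted only where the main ratio was at least 2-fold, and smaller ratios that changed side were not counted apart. Genes left at 0 or few UMI in the 13 cells gave no value where their bound did not tell a direction. Of 130 levels of 26 genes, 68 left their interval. A gene of 1 or 2 UMI in dendritic cells is limited by their 97 cells.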
